A study of Petunia x hybrida with 12 samples.

Results

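The genes described here are the 100 gene IDs whose share of the reads varied least between the pistil libraries of Petunia x hybrida cultivar Mitchell, and they are described as candidate reference genes for petunia pistils across flower opening. They were chosen on CPM, the count of an ID divided by the total of its library and multiplied by 1000000. Among IDs with a mean of 50 to under 1000 CPM over the 12 libraries, those with the lowest coefficient of variation (CV, the SD over 12 libraries as a percentage of the mean) were taken. The table held 35812 IDs, of which 4575 lay in that window of level and 100 were chosen. Because CV over all libraries chose them, their low spread and their small differences between the groups are descriptions of the choice. Calls between groups over these same libraries are printed further on in the same sense, as a description of the list and not as a test of it. A measurement of stability in libraries that the choice did not use follows further on.

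The libraries came from 4 groups of 3. These were pistils of tps1 plants, in which RNA interference is directed at PhTPS1 (a terpene synthase gene), at day +1 relative to flower opening, pistils of wild-type (WT) plants at day +1, tps1 pistils at day -1 and WT pistils at day -1. All pistils were of cultivar Mitchell and were collected at 14 h, and polyadenylated RNA was sequenced. The labels give neither the number of transformed lines nor which plants went into each library, and no group with a control construct was analysed here, so effects of the construct and other differences between the plants cannot be told apart. If the 3 libraries of a group share plants, the p-values cover technical spread rather than spread between plants.

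A pistil consists of the stigma, which receives pollen, the style through which pollen tubes grow, and the ovary with its ovules. Between the bud and the open flower this organ finishes its expansion and becomes receptive, and a large part of its transcriptome changes. Quantitative PCR and similar assays report a transcript relative to 1 or a few reference genes, which are chosen because they are thought to keep the same share of the RNA in every sample compared. Reference genes in common use come from basic cell functions such as the cytoskeleton, translation, protein turnover and glycolysis. No gene names come with the IDs of the deposited file, so it is not known which of the usual reference genes, if any, are among the 100, no role is given to any ID, no sequence or position is printed, and the tissue label was not checked against marker genes. Each ID is made of the prefix Peaxi162, a scaffold and a gene number. CPM is not corrected for transcript length, so CPM values are compared between libraries and not between genes.

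Total counts per library ranged from 19576755 to 30357964. The 100 members together took 0.893 to 0.964% of the counts of a library, and their lowest count in any library was 974. In these bulk libraries fewer cells of a type and less RNA per cell cannot be told apart, and a gene that kept its share of the counts may still have changed in molecules per pistil. One set of IDs took very different shares of the libraries: 560 IDs with a WT day +1 mean of 5 CPM or more whose CPM in WT day +1 replicates 3 and 2 was 4-fold or more apart. It took 4.79 to 8.84% of the counts in the tps1 day +1 libraries and 1.39 to 10.9% in the WT day +1 libraries. At day -1 it took 0.166 to 0.169% in tps1 and 0.170 to 1.04% in WT, the highest of these in WT day -1 replicate 2. The set holds 0 of the 100 members.

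The CV of the members ran from 3.01 to 6.06%, with a median of 5.39%. Over all 4575 IDs of the window the median CV was 23.4% and the highest 154%. A total of 6 members lay under 4% and 31 under 5%. Between its lowest and its highest library a member differed by 1.11-fold to 1.26-fold (median 1.19-fold), against a median of 1.97-fold over the window. The ID with the widest of these ratios, Peaxi162Scf00263g00317, had 50.9 CPM in WT day -1 replicate 2 and 64.4 CPM in WT day +1 replicate 2. Counting error alone would give the members a CV of 1.02 to 2.87%, and it accounts for a median of 19.5% of their variance (3.33 to 47.0%).

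**Figure D1:**
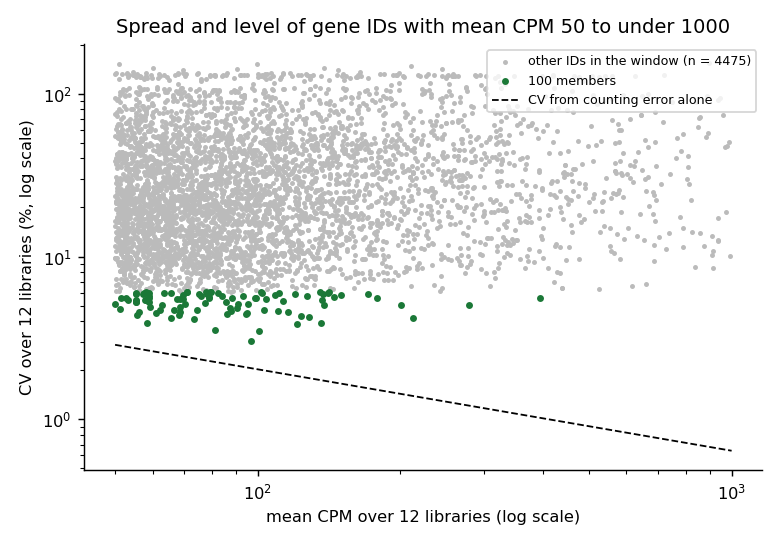
CV over 12 libraries (%, log scale) against mean CPM (log scale) for the 4575 IDs with a mean of 50 to under 1000 CPM. Green points are the 100 members, grey points the other 4475 IDs, and the dashed line is the CV that counting error alone gives. The members form the lower edge of the cloud, from 3.01 to 6.06%, and all lie above the dashed line.

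The limit of the choice falls in a dense part of this distribution. The last member, Peaxi162Scf00740g00543, had a CV of 6.061% and the first ID left out, Peaxi162Scf00588g01013, one of 6.063%. Membership near the limit is thus settled by differences in the third decimal of a percentage. Low spread was not particular to the window either. Among the 8380 IDs with a mean of 10 to under 50 CPM, 100 had a CV at or under that of the last member, the lowest being 4.03%. Among the 60 IDs with a mean of 1000 CPM or more there were 0, and the lowest CV was 6.35%.

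Peaxi162Scf00351g00617 had the lowest CV of the window, 3.01%, at a mean of 96.7 CPM. It had 93.5, 95.7 and 97.3 CPM in tps1 day +1 pistils and 97.8, 96.6 and 90.1 CPM in WT day +1 pistils. In tps1 day -1 pistils it had 97.1, 97.7 and 94.8 CPM, and in WT day -1 pistils 99.9, 100.2 and 99.9 CPM. The WT day -1 libraries were thus the highest, above each of the other 9, and WT day +1 replicate 3 was the lowest. The 3 WT day -1 values had an SD of 0.206 CPM. Counting error alone would give this ID a CV of 2.06%, so neither that small SD nor the order of the libraries is read as a result.

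Peaxi162Scf00398g00717 came next, with a CV of 3.49% at a mean of 100.5 CPM. Its values were 99.4, 103 and 99.8 CPM in tps1 day +1 pistils and 97.4, 96.3 and 99.9 CPM in WT day +1 pistils. At day -1 they were 101.1, 103 and 99.4 CPM in tps1 and 98.9, 97.8 and 109 CPM in WT. In these CPM values the ranges of the 4 groups overlapped, and WT day -1 replicate 3 was the highest library.

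Peaxi162Scf00790g00017 had a CV of 3.56% at a mean of 81.1 CPM. It stood at 83.4, 78.1 and 79.4 CPM in tps1 day +1 pistils, and at 82.5, 75.5 and 84.1 CPM in WT day +1 pistils. At day -1 the values were 85.2, 81.9 and 80.1 CPM in tps1 and 82.9, 82.0 and 78.0 CPM in WT. In these CPM values the ranges of the 4 groups overlapped, and the lowest and the second highest value both belonged to WT day +1.

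Peaxi162Scf00378g00620, with a CV of 3.87%, had 118, 126 and 124 CPM in tps1 day +1 pistils and 125, 122 and 124 CPM in WT day +1 pistils. It had 117, 117 and 119.9 CPM in tps1 day -1 pistils and 118, 128 and 111 CPM in WT day -1 pistils. Its lowest and its highest library were both in the WT day -1 group, and in these CPM values the days overlapped in each genotype. Peaxi162Scf01172g00031, with a CV of 3.89%, had 137, 131 and 136 CPM in tps1 day +1 pistils and 129.8, 127 and 139 CPM in WT day +1 pistils. It had 139, 141 and 133 CPM in tps1 day -1 pistils and 136, 139 and 146 CPM in WT day -1 pistils. WT day +1 replicate 2 was its lowest and WT day -1 replicate 3 its highest library. In these CPM values its days overlapped in each genotype. On the TMM scale, described further on, each of the 5 members of lowest CV had all tps1 day +1 libraries above all tps1 day -1 libraries. The WT days still overlapped for each. Peaxi162Scf00378g00620 had 127, 130 and 128 TMM-scaled CPM in tps1 day +1 pistils and 110, 110 and 114 in tps1 day -1 pistils. Its CV on that scale was 8.65%.

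**Figure D2:**
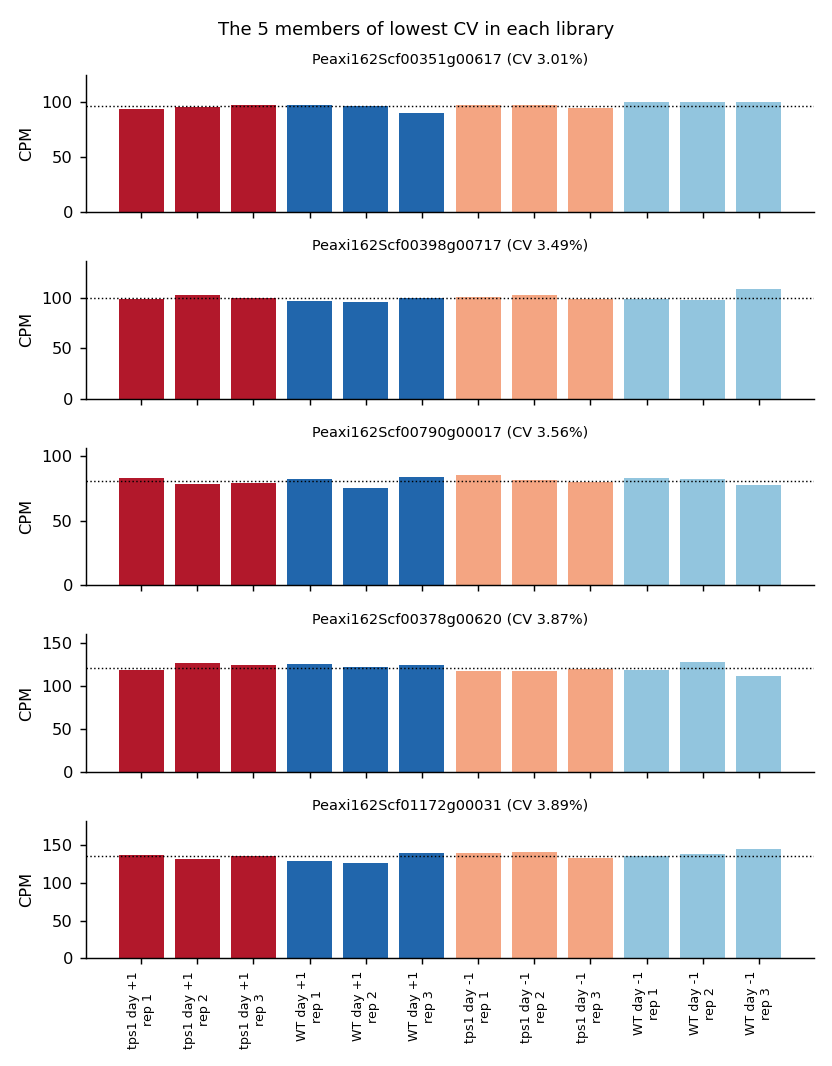
CPM (count over column total, linear axis from 0) of the 5 members of lowest CV in each of the 12 libraries, 1 bar per library, coloured by group. The dotted line is the mean of the 12 libraries. No bar of Peaxi162Scf00351g00617 leaves the range of 90.1 to 100.2 CPM.

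Combined values of several members varied less than single members. The geometric mean of the 5 members of lowest CV had a CV of 1.44% over the 12 libraries and a ratio of 1.06 between its highest and lowest library. That of the first 3 had a CV of 1.78%, that of the first 10 one of 1.45%, and that of all 100 one of 2.33%. The members were ranked in these same libraries on the same scale, so low values here follow in part from the choice. On the TMM scale, described further on, each of the 5 had the higher mean at day +1 in both genotypes. The combined values were not measured on that scale. As a measure that does not depend on how libraries are scaled, the SD of the log2 ratio of each member to each other member was averaged over the other 99 in the manner of geNorm (a published way of ranking reference genes). This mean was 0.078 for Peaxi162Scf00351g00617, the lowest, and 0.118 for Peaxi162Scf00041g00612, the highest, with a median of 0.095 on the log2 scale. A shift that all members share cancels in these ratios, and the choice of members made small values likely. The measure therefore cannot show whether the list as a whole kept its level between days.

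The members took modest shares of the reads. Their mean ran from 50.01 CPM (Peaxi162Scf00111g00921) to 394 CPM (Peaxi162Scf00060g00020), with a median of 78.9 CPM. Of the 100, 70 had a mean under 100 CPM, against 58.3% of the window, and 4 had 200 CPM or more, against 15.0% of the window. Peaxi162Scf00060g00020 had 377, 408 and 398 CPM in tps1 day +1 pistils and 430.0, 419 and 381 CPM in WT day +1 pistils. It had 380.2, 398 and 351 CPM in tps1 day -1 pistils and 400.4, 409 and 373 CPM in WT day -1 pistils. In these CPM values the groups overlapped throughout. On the TMM scale, described further on, its days did not overlap in either genotype, and its CV was 9.11%. There it had 404, 422 and 412 at day +1 and 358, 375 and 335 at day -1 in tps1. In WT it had 460, 423 and 415 at day +1 and 373, 408 and 354 at day -1. The members lay on 87 scaffolds, 77 of which held 1 member, 7 held 2 and 3 held 3.

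A few libraries carried many of the extreme values. WT day +1 replicate 2 was the highest library for 26 members and tps1 day -1 replicate 2 for 20. WT day +1 replicate 3 and WT day -1 replicate 2 were each the lowest library for 22 members. Relative to its own mean over the 12 libraries, the median member was lower by the most in WT day +1 replicate 3 (-0.072 on the log2 scale) and tps1 day +1 replicate 1 (-0.042). These are the libraries in which the 560 co-varying IDs took the largest shares, 10.9 and 8.84%. The median member was higher by the most in tps1 day -1 replicate 2 (0.060) and WT day +1 replicate 2 (0.048), where those IDs took 0.166 and 1.39%. The other 8 libraries did not follow one order: the median member stood at 0.032 in tps1 day +1 replicate 2, where the set took 4.79%, and at 0.011 in tps1 day +1 replicate 3, where it took 5.93%, but at -0.020 in both tps1 day -1 replicate 3 and WT day -1 replicate 2, where it took 0.168 and 1.04%. With the 560 IDs left out of the totals, the median member stood at 0.009 to 0.057 in each of the 6 day +1 libraries, and at -0.064 to 0.017 in the 6 day -1 libraries. The median CV of the members was then 5.60%, a value set in part by the choice of members on full column totals. The set was defined by differences between WT day +1 replicates 3 and 2. Its unlike shares in those libraries are thus in part built in. Whether the set moved the members was not tested.

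Whether IDs picked for low spread stay stable in other libraries was measured across the genotypes. The same rule was applied to the 6 libraries of 1 genotype, and CV was then taken in the 6 libraries of the other, so that choice and measurement shared no library. The 100 IDs chosen in WT had a CV of 1.97 to 5.70% there (median 4.94%) and a median of 6.99% in tps1, where the window had a median of 23.5%. In tps1, 58 of the 100 lay within the most stable 10% of the window (459 of 4596 IDs), and 98 were in the window with a CV under its median. A total of 53 differed by less than 1.2-fold between the lowest and the highest tps1 library, and 3 differed by over 1.5-fold. The count over 1.5-fold was 9 without WT day -1 replicate 3, 6 without WT day -1 replicate 1 or WT day +1 replicate 3, and 1 without WT day -1 replicate 2 or tps1 day -1 replicate 3.

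The reverse choice gave wider spread. The 100 IDs chosen in tps1 had a median CV of 3.63% there and 8.69% in WT, where the window had a median of 24.5%. In WT, 50 of the 100 lay within the most stable 10% of the window (451 of 4510 IDs), and 98 were in the window with a CV under its median. A total of 29 differed by less than 1.2-fold between WT libraries. A further 17 differed by over 1.5-fold, against 4 when WT day -1 replicate 2 was left out and 10 when either WT day -1 replicate 3 or tps1 day -1 replicate 3 was left out. That count rose to 22 without tps1 day -1 replicate 2 and to 19 without tps1 day -1 replicate 1. Without WT day -1 replicate 2 the median CV in WT was 6.79% and 58 differed by less than 1.2-fold. The choices made in WT and in tps1 shared 18 of their 100 IDs, and 8 without WT day +1 replicate 3. Of the 100 members chosen on all 12 libraries, 54 were among the WT choice and 40 among the tps1 choice. Of the WT choice made without WT day -1 replicate 2, 31 were members, and of that without WT day -1 replicate 3, 35.

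**Figure D3:**
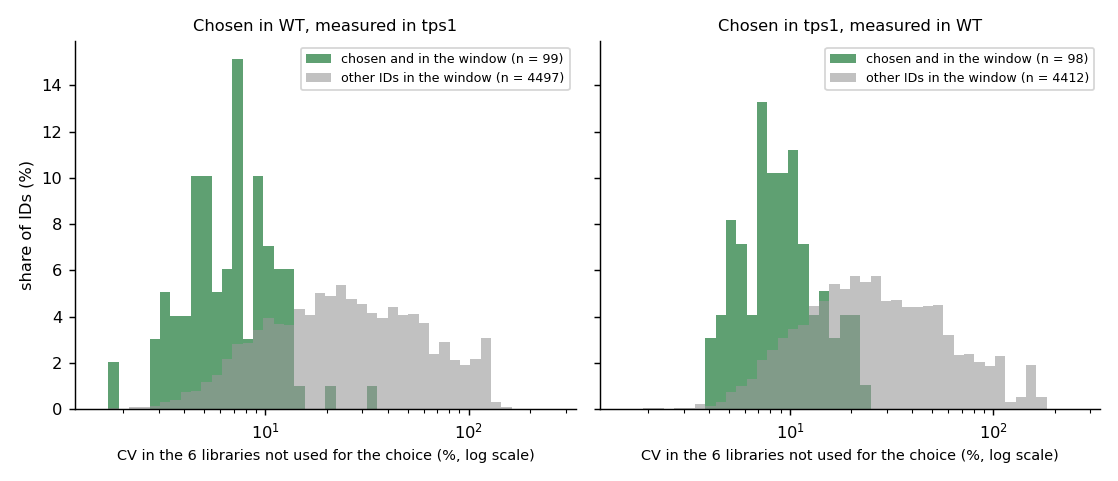
Distribution of CV (%, log scale) in the 6 libraries of the genotype that was not used for the choice, as a share of IDs (%). Green bars are the IDs chosen in the other genotype that were also in the window of 50 to under 1000 CPM (99 in tps1 and 98 in WT), grey bars the other IDs of the window. Green bars lie to the left, around medians of 6.99% (chosen in WT) and 8.69% (chosen in tps1), with a tail that reaches the grey bars.

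The ID with the highest CV in the other genotype was singled out for each choice, after the values were seen. Peaxi162Scf01082g00028 was chosen in tps1, where it had 105, 106 and 113 CPM at day +1 and 114, 112 and 116 CPM at day -1, a CV of 4.08%. In WT it had 4.09, 5.03 and 4.85 CPM at day +1 and 8.93, 6.16 and 11.1 CPM at day -1, a CV of 41.1%, and its lowest tps1 library was at 9.42 times its highest WT library. Peaxi162Scf00314g00627 was chosen in WT, with 286, 317 and 293 CPM at day +1 and 303, 294 and 274 CPM at day -1, a CV of 4.88%. In tps1 it had 324, 339 and 354 CPM at day +1 and 349.8, 277 and 616 CPM at day -1, a CV of 32.0%, so that a single library, tps1 day -1 replicate 3, set it apart. Neither ID is a member.

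Whether the members kept their level across flower opening depended on how the libraries were scaled. Dividing by the library total assumes that the sum of all RNA is the common measure. The TMM method of edgeR instead takes a trimmed mean of the ratios of single IDs between libraries, and its factors were 0.918 to 0.991 in the day +1 libraries and 1.00 to 1.07 in the day -1 libraries. On column totals the median member was at 1.00 times its day -1 level at day +1 in WT and at 0.983 times in tps1, and 51 of 100 members in WT and 34 of 100 in tps1 had the higher mean at day +1. On the TMM scale it was at 1.10 times that level in WT and at 1.09 times in tps1, and 98 of 100 members in WT and 100 of 100 in tps1 had the higher mean at day +1. The 2 scales differ for all IDs alike: the median log2 fold change between days over the 21239 tested IDs was -0.01 in WT and 0.00 in tps1 with TMM, and -0.15 and -0.14 with column totals.

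**Figure D4:**
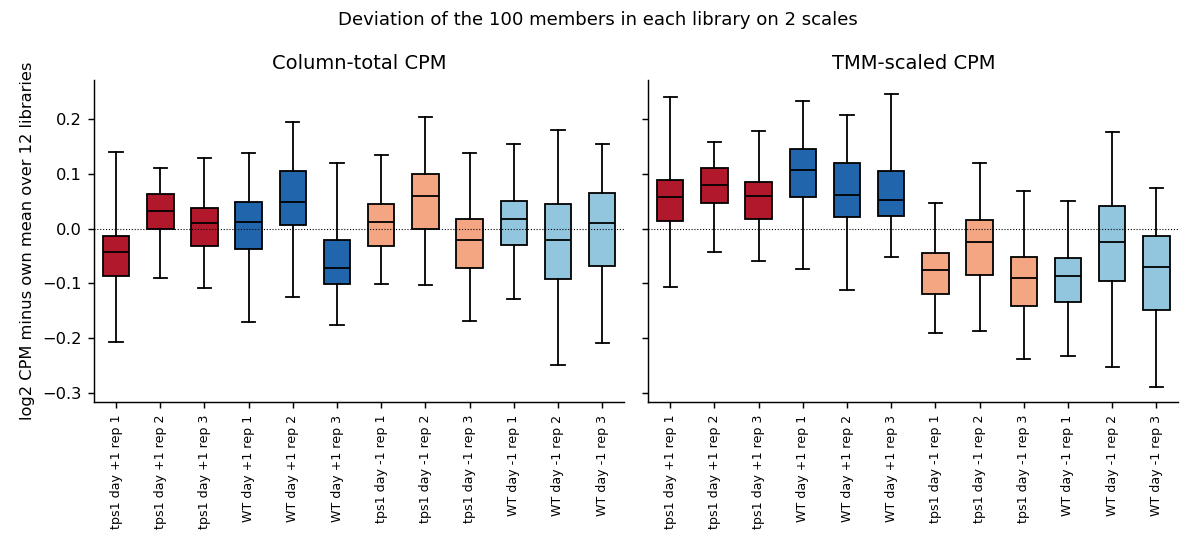
Deviation of each of the 100 members from its own mean over 12 libraries (log2 CPM), by library, on column-total CPM (left) and on TMM-scaled CPM (right). Boxes show the median and quartiles, whiskers the lowest and highest member. On the left the boxes scatter around 0 in both days. On the right the medians of the day +1 boxes lie above those of the day -1 boxes, while boxes and whiskers of the days can overlap.

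In a quasi-likelihood model fitted with edgeR to all 21239 IDs that passed a filter on low counts (TMM scale, adjusted p under 0.05), 37 of the 100 members were called higher at day +1 than at day -1 in WT and 0 were called lower. Of all tested IDs 64.8% were called there, 31.3% as higher and 33.5% as lower. In tps1, 23 members were called higher and 0 lower, beside 64.8% of all tested IDs, 31.8% as higher and 33% as lower. The choice of members fixed that their changes be small, so these shares are not read as a result about them. On column totals the same model called 1 member in WT, as lower, and 1 in tps1, as higher, beside 63.6% of all tested IDs in each genotype. DESeq2 with its own size factors called 62 members in WT and 37 in tps1, all as higher, beside 65.7 and 65.8% of all tested IDs. Single libraries moved these counts too. Leaving out 1 library gave 17 to 41 called members in WT, with 17 without WT day +1 replicate 1 and 23 without WT day -1 replicate 1, WT day +1 replicate 2 or WT day +1 replicate 3, while the share of all tested IDs called moved too, between 58.7% (without WT day +1 replicate 1 or 3) and 67.9% (without tps1 day -1 replicate 2, which gave the 41). In tps1 it gave 8 to 27, with 11 without tps1 day -1 replicate 1, tps1 day -1 replicate 3 or tps1 day +1 replicate 1, 10 without tps1 day +1 replicate 2 and 8 without tps1 day +1 replicate 3, beside 57.5 to 67% of all tested IDs. The fitted changes on the TMM scale lay between -0.05 and 0.28 in WT and between 0.02 and 0.33 in tps1 (log2), while the median size of change over all tested IDs was 0.66 and 0.63. On that scale the 3 day +1 libraries did not overlap the 3 day -1 libraries for 58 members in WT and 62 in tps1, all of them higher at day +1, beside 69.8 and 72.5% of all tested IDs.

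**Figure D5:**
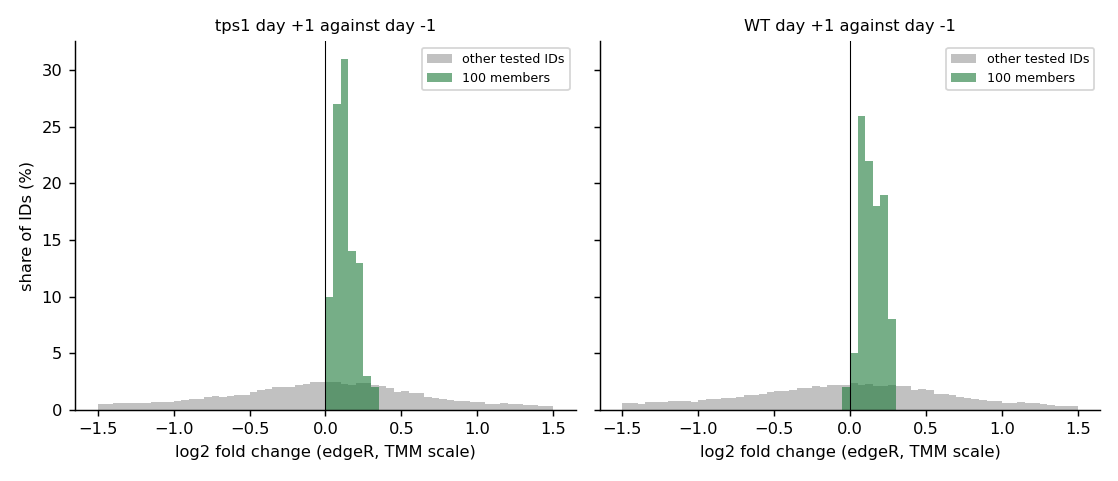
Log2 fold change of day +1 over day -1 (edgeR, TMM scale) in tps1 (left) and WT (right), as a share of IDs (%), for the 100 members (green) and the other tested IDs (grey). The axis ends at 1.5, beyond which 25% of the other IDs lie in tps1 and 24.6% in WT. The members form a narrow peak to the right of 0, between 0.02 and 0.33 in tps1 and between -0.05 and 0.28 in WT.

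The members with the widest day change in WT differed between days as follows. Peaxi162Scf00020g01228 had 76.0, 70.5 and 82.4 TMM-scaled CPM in WT day +1 pistils and 64.0, 63.1 and 61.5 in WT day -1 pistils (log2 fold change 0.28 ± 0.071 SE). In column-total CPM its values were 71.1, 69.8 and 75.6 at day +1 and 68.7, 63.3 and 65.0 at day -1. The days did not overlap on either scale. Peaxi162Scf00171g00132 had 91.4, 88.0 and 81.9 TMM-scaled CPM in WT day +1 pistils and 68.4, 79.1 and 69.5 in WT day -1 pistils (log2 fold change 0.27 ± 0.074 SE). In column-total CPM it had 85.5, 87.1 and 75.1 at day +1 and 73.5, 79.3 and 73.4 at day -1, where the ranges overlapped.

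At the other end stood Peaxi162Scf00041g00612, with 105, 104 and 118 TMM-scaled CPM in WT day +1 pistils and 110.1, 115 and 112 in WT day -1 pistils (log2 fold change -0.05 ± 0.072 SE). Its column-total values were 98.4, 103 and 108 CPM at day +1 and 118, 116 and 119 CPM at day -1, so the days overlapped by TMM, while by column total each day +1 library was below each day -1 library. Peaxi162Scf00192g00215 had 134, 131 and 136 TMM-scaled CPM in WT day +1 pistils and 132, 133 and 137 in WT day -1 pistils (log2 fold change -0.00 ± 0.069 SE). In column-total CPM it had 125, 129.8 and 125 at day +1 and 142, 133 and 144 at day -1, and here too the days overlapped by TMM and not by column total.

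Only part of the list held on other scales. Applying the rule to TMM-scaled CPM chose 25 of the 100 members again, and applying it to values scaled by DESeq2 size factors chose 13. These 13 were among the 100 on all 3 scales, while the TMM and DESeq2 choices shared 82 of their 100 IDs. The 13 include Peaxi162Scf00351g00617, with a CV of 3.01% by column total, 4.58% by TMM and 4.91% by DESeq2 size factors. They also include Peaxi162Scf00192g00215, with 6.04, 3.45 and 3.60%, and Peaxi162Scf00041g00612, with 5.95, 4.21 and 4.36%. Taken as they are, the 100 members had a median CV of 6.68% on the TMM scale and 7.27% on the DESeq2 scale, and 84 and 79 of them lay within the most stable 10% of the window there. The same libraries chose the members, so these counts follow in part from the choice. The list chosen on TMM-scaled values had a median CV of 4.81% on that scale and 7.16% by column total.

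Both genotypes entered the choice, so small differences between tps1 and WT were close to fixed by it, and the values that follow describe the list and do not test whether the construct shifted its members. By column-total mean, 45 members were higher in tps1 than in WT at day +1 and 61 at day -1, while on the TMM scale 36 were higher at day +1 and 48 at day -1, so the majority at day -1 turned with the scale. In the edgeR model (TMM scale) 0 of the 100 members were called between tps1 and WT at day +1, beside 0.4% of all tested IDs, and 0 at day -1, beside 0.184%. An unadjusted p under 0.05 was found for 1 member on each day, against 1656 of all tested IDs at day +1 and 1637 at day -1. With DESeq2 it was found for 4 members at day +1 and 3 at day -1, against 1682 and 1844 of all tested IDs. DESeq2 called 0 members on either day, beside 1.49% of all tested IDs at day +1 and 1.88% at day -1, and limma voom called 0, beside 0.424% at day +1 and 0.16% at day -1. The median size of the genotype difference was 0.037 at day +1 and 0.036 at day -1 on the log2 scale, with a median standard error of 0.072 on each day, while over all tested IDs the median size was 0.13 on each day. The 3 tps1 libraries did not overlap the 3 WT libraries (TMM scale) for 15 members at day +1 (6 higher, 9 lower in tps1), beside 23.9% of all tested IDs, and for 8 at day -1 (5 higher, 3 lower), beside 7.97%. For the difference between genotypes in day change the model called 0 members beside 0.00471% of all tested IDs, and an unadjusted p under 0.05 was found for 0 members and 1300 of all tested IDs. DESeq2 called 0 members for it, beside 0.433% of all tested IDs, and gave an unadjusted p under 0.05 for 3 members and 1421 of all tested IDs. Limma voom called 0 members and 0 of all tested IDs.

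On the groups themselves, the ratio of the highest to the lowest of the 4 column-total group means ran from 1.02 to 1.14 among the members, with a median of 1.07, against a median of 1.58 over the window. Differences between groups made up a median of 25.8% of a member's variance in log2 CPM, against 82.5% over the window. With 4 groups of 3 libraries, values with no difference between groups give 27.3% on average (3 of 11 degrees of freedom), so the members' median is no measure of a group difference. The member with the largest such share was Peaxi162Scf00041g00612, at 82.7%. It had 107.6 ± 2.62 CPM in tps1 day +1 pistils, 103 ± 5.03 CPM in WT day +1 pistils, 115 ± 2.10 CPM in tps1 day -1 pistils and 118 ± 1.62 CPM in WT day -1 pistils (SD, n = 3 each).

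Between the genotypes, IDs chosen on 1 and tested for a day change in a fit of the other alone gave calls that leave the choice out. Of the 100 IDs chosen in WT, 10 were called higher and 0 lower at day +1 in tps1 (edgeR, tps1 libraries alone, adjusted p under 0.05), beside 64.7% of all 20837 IDs tested. Of the 100 chosen in tps1, 20 were called higher and 1 lower in WT (WT libraries alone), beside 61.4% of 20535. Their median size of change was 1.08-fold in tps1 and 1.13-fold in WT, against 1.54-fold and 1.55-fold over all tested IDs. The choice used column totals and the fits used the TMM scale, and these scales differ between days for all IDs alike. A shift from the scale and a change between days therefore cannot be told apart in these sizes. These counts moved with the settings of the choice and with single libraries. With a window from 20 CPM, 24 WT-chosen IDs were called in tps1. With TMM used for the choice too, 4 WT-chosen IDs were called in tps1, 2 higher and 2 lower, and 1 tps1-chosen ID in WT, as lower, so the lean to higher was not seen there. The median size of change was then 1.05-fold for the WT-chosen IDs in tps1 and 1.07-fold for the tps1-chosen IDs in WT. Leaving out 1 library gave 4 to 44 calls among the WT-chosen IDs, the highest without tps1 day -1 replicate 2 (beside 74% of all tested IDs) and the lowest without tps1 day -1 replicate 1 (beside 57.2%). It gave 0 to 36 among the tps1-chosen IDs, the highest without WT day -1 replicate 3 (beside 61.8%) and the lowest without WT day +1 replicate 2 (beside 52.2%).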

How the data were processed

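The authors deposited 1 table of raw read counts per gene ID for 12 libraries. Per the submitters' processing notes, cutadapt, TopHat2 and HTSeq were used. No version, genome build or strand setting is stated in the sources used here. Columns were matched to samples by the names in the sample descriptions. The members and lists were chosen with earlier results of these data known. CPM is count over column total times 1000000, and CV uses the sample SD. Tests used R 4.3.3 with edgeR 4.0.16 (filterByExpr with a minimum count of 10, TMM, quasi-likelihood test, 4 group means in 1 fit, Benjamini-Hochberg adjustment over all tested IDs, threshold 0.05). The standard error is the size of the log2 fold change over the square root of F. DESeq2 1.42.0 and limma 3.58.1 (voom) were alternatives. CV and choices were computed in Python 3.11.15 with pandas 2.3.3 and numpy 2.4.6. The model and the rule were run on simulated data as a check of the code. The stable genes planted for the rule had counting error alone, unlike the members, so that run does not show how well members are ranked. Total counts were 19576755 to 30357964 per library, and the lowest count of a member in a library was 974. Alternatives were other scalings, windows, measures of spread, filters and tools, the replicate number as a block, fits on only the groups compared, and leaving out each library. Named IDs are the 5 of lowest CV, the highest and lowest mean, the IDs on both sides of the limit, and the 2 highest and 2 lowest day changes in WT. Other named IDs were chosen after their values were seen. Lists of usual reference genes and tissue markers needed names and were not looked up.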

Additional observations from a re-analysis of the deposited data

How the results depend on the processing

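The members were re-selected, out of 100, as follows: 25 with TMM-scaled library sizes, 13 with DESeq2 size factors, 46 with the median absolute deviation over the median, 47 with the highest over the lowest group mean, 54 with a window of 20 to under 1000 CPM, and 48 with column totals without the 560 co-varying IDs (chosen after seeing the data). Leaving out 1 library re-selected 55 to 92, the 55 without WT day -1 replicate 2. It was 95 with the SD of log2(CPM + 1), and 100 with no upper limit on the level. The 37 members called between days in WT became 1 with library totals, 1 when scaled to the members themselves, 62 with DESeq2 and 13 with only the WT libraries fitted (63.6, 64.9, 65.7 and 61.4% of all tested IDs, beside 64.8%). Leaving out 1 library gave 17 to 41 (58.7 to 67.9% of all), with 17 without WT day +1 replicate 1 and 23 without WT day -1 replicate 1, WT day +1 replicate 2 or WT day +1 replicate 3. The 23 in tps1 became 1 with library totals, 3 when scaled to the members, 13 with no filter on low counts, 37 with DESeq2 and 15 with only the tps1 libraries (63.6, 65, 52.5, 65.8 and 64.7% of all). Leaving out 1 library gave 8 to 27 (57.5 to 67% of all), with 11 without tps1 day -1 replicate 1 or 3 or tps1 day +1 replicate 1, 10 without tps1 day +1 replicate 2 and 8 without tps1 day +1 replicate 3. Fewer libraries also mean less power. Genotype calls and calls of the difference in day change among members were 0 in the alternatives run. Of the held-out counts, those within the most stable 10% were 41 to 62 (WT-chosen, in tps1) and 45 to 57 (tps1-chosen, in WT) with 1 library left out. WT-chosen IDs called in tps1 were 10, and 24 with a window from 20 CPM and 4 with TMM for choice and test (factors estimated over all 12 libraries), each beside 64.7% of all. With 1 library left out they were 4 to 44 (53.7 to 74% of all): 21 and 16 without WT day -1 replicates 2 and 3, 23 without WT day +1 replicate 2, and 4, 44 and 6 without tps1 day -1 replicates 1, 2 and 3. The tps1-chosen IDs called in WT were 21, and 1 with TMM for both, each beside 61.4%. With 1 library left out they were 0 to 36 (51.1 to 61.9% of all): 34 and 36 without WT day -1 replicates 2 and 3, 3, 0 and 9 without WT day +1 replicates 1, 2 and 3, 12 without tps1 day -1 replicate 2, and 13 and 33 without tps1 day +1 replicates 1 and 2. The cause of these moves was not tested.

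Replicate numbers are shared between groups, but same-numbered libraries did not deviate together (correlations across IDs from -0.567 to 0.317), and not every library correlated best with its own number. With the replicate number as a block, 76 members were re-selected, 31 and 17 were called between days in WT and tps1 (62.3 and 62.9% of all tested IDs), 0 between genotypes, and 6 WT-chosen and 7 tps1-chosen IDs were called in the other genotype (59.7 and 53.3% of all). Depth limits how finely the members can be ranked: counting error was a CV of 1.02 to 2.87%, a median of 19.5% of a member's variance and at most 47.0%.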
